A study of Mus musculus with 18 samples.

Results

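The contrast described here set 2 estradiol responses in the mouse arcuate nucleus against each other: the change with estradiol, relative to oil, in mice without estrogen receptor α (ERKO), minus the same change in wild-type (WT) mice. Its 4 groups, ERKO E2, ERKO oil, WT E2 and WT oil, held 3 libraries each, 12 of the 18 libraries of the series. The difference was computed on log2(FPKM + 1) for every gene with a mean of at least 0.5 FPKM over the 18 libraries, which gave 14774 genes of the 23235 gene symbols listed. FPKM is a fragment count divided by the length of the transcript and the size of the library. By construction a difference is negative where estradiol raised a gene less, or lowered it more, in ERKO than in WT, and positive in the reverse case.

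All groups were ovariectomized females of the C57/BL strain, so the oil groups had no ovarian estradiol. ERKO E2 mice lacked the receptor and received estradiol benzoate in oil, with 250 ng given 5 days and 1500 ng given 6 days after surgery. ERKO oil mice lacked the receptor and received oil alone. WT E2 mice had the intact receptor and the same 2 estradiol injections, and WT oil mice had the intact receptor and oil. The arcuate nucleus was dissected from animals fasted for 1 h, 24 h past the later injection, and total RNA was sequenced. The labels do not say how the ERKO allele was built, from which cells the receptor is missing, or whether a library came from 1 animal or from a pool, so n counts libraries and p-values measure the spread between these libraries. The remaining 6 libraries, from KIKO mice given E2 or oil, entered the fit for the estimate of the spread and not the contrast. KIKO is the third genotype label of the series, and what its allele changes is not described here. In tissue of this kind, fewer cells of a type and less RNA per cell cannot be told apart.

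Estrogen receptor α, encoded by Esr1, is a transcription factor that estradiol switches on. It binds estrogen response elements in DNA, made of the arm GGTCA and its reverse TGACC with 3 bases between, or reaches genes through other factors, and it also signals from outside the nucleus. In the arcuate nucleus it is abundant in neurons that make kisspeptin, neurokinin B and dynorphin (KNDy neurons), where estradiol is known to repress Kiss1 as part of the negative feedback on gonadotropin release. A second receptor, encoded by Esr2, also binds estradiol.

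The genotype was read first from Esr1, on chromosome 10. Esr1 had 1.91, 2.34 and 0.212 FPKM in ERKO E2 libraries and 1.62, 2.39 and 2.27 FPKM in ERKO oil libraries, against 3.45, 5.24 and 5.88 FPKM in WT E2 libraries and 5.38, 6.92 and 11.9 FPKM in WT oil libraries. Every ERKO library lay below every WT library, and none of the ERKO libraries was at 0. An FPKM value does not show whether the transcript read was intact. The E2 response of Esr1 itself did not differ past the threshold between the genotypes (difference 0.15 ± 0.46, adjusted p = 0.881). Esr2 had 0.277, 0.429 and 0.334 FPKM in ERKO E2 libraries and 0.191, 0.343 and 0.413 FPKM in ERKO oil libraries, against 0.246, 0.158 and 0.0867 FPKM in WT E2 libraries and 0.149, 0 and 0.145 FPKM in WT oil libraries, under the minimum of 0.5 FPKM in all of them.

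One library, ERKO E2 3, stood apart. Its correlation with the other libraries over tested genes ran from 0.919 to 0.954, against 0.963 to 0.995 among the other 17, its Esr1 was the lowest of all, and its relative depth was the lowest (0.728 on a scale where the deepest library had 1.5). The summed FPKM of 8 marker genes of the paraventricular and supraoptic nuclei, which neighbour the dissected area, was 5018, 5430 and 20569 in ERKO E2 libraries and 1809, 3566 and 4370 in ERKO oil libraries, against 5592, 4031 and 4405 in WT E2 libraries and 7358, 7077 and 4522 in WT oil libraries. Avp and Oxt made up most of each sum, so it says little of the other markers. Avp had 3345, 3684 and 13107 FPKM and Oxt 1595, 1648 and 7392 FPKM in ERKO E2 libraries. The FPKM total of ERKO E2 3 was 628541, and the next highest total was 492135 in WT oil 1. In ERKO E2 libraries, 12 tanycyte and ependyma markers summed to 400, 343 and 625 FPKM. There, 25 calcium, HCN, TRP and sodium channel genes summed to 362, 372 and 193 FPKM, and 10 oligodendrocyte markers to 1419, 1442 and 1329 FPKM. The 15 arcuate markers, Agrp, Npy and Pomc among them, were read in all 12 libraries, with sums of 5088, 3867 and 7649 FPKM in ERKO E2 and 3950, 3852 and 3944 FPKM in ERKO oil, against 5010, 4489 and 4081 FPKM in WT E2 and 6881, 5815 and 6117 FPKM in WT oil. Pituitary and pars tuberalis markers were high in some libraries of each group, with sums of 19.0 to 213 FPKM in ERKO E2 and 3.53 to 271 FPKM in ERKO oil, against 3.66 to 371 FPKM in WT E2 and 4.78 to 378 FPKM in WT oil, and their Gh and Prl were at 0 in all 12. The part that these differences between libraries play in the results was not tested, and the counts of genes past the threshold in ERKO and WT are given with and without ERKO E2 3.

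Shown are the 3 largest negative and 2 largest positive differences past the threshold described below, among genes with a single start in the RefSeq table. Each is given with the 250 bases before its gene start, the stretch in which a promoter-proximal receptor site would lie. Sequences are from RefSeq GRCm38.p6, 5′ to 3′ on the strand of the gene, with the arms GGTCA and TGACC in capitals: Rln3 at chr8:84044980-84045229 (minus strand), Aqp5 at chr15:99590778-99591027, Mad2l1 at chr6:66534971-66535220, Kiss1 at chr1:133326962-133327211 and Timp1 at chrX:20869916-20870165 (plus strand for these 4).
Rln3: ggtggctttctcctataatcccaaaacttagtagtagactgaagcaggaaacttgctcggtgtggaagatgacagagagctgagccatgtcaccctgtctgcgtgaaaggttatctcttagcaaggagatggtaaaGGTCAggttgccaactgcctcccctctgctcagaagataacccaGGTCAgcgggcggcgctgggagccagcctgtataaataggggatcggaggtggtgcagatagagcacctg
Aqp5: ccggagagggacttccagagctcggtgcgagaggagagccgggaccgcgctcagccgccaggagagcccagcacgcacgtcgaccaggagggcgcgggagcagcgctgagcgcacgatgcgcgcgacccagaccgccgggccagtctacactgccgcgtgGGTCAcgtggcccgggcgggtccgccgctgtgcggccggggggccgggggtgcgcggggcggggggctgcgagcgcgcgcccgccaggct
Mad2l1: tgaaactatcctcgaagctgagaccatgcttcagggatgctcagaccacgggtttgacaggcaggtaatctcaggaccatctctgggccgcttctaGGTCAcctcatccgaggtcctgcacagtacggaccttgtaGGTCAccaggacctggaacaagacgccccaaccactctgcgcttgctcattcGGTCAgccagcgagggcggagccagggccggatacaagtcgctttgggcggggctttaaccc
Kiss1: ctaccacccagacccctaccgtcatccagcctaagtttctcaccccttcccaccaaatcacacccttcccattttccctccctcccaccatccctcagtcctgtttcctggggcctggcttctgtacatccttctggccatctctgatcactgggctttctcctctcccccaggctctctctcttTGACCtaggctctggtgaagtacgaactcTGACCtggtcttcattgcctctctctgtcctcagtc
Timp1: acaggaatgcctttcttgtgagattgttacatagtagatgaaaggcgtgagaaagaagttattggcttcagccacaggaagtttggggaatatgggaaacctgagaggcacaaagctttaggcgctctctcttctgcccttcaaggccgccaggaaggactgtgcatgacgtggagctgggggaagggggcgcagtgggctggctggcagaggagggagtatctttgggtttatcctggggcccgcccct
Rln3 held 2 arms, 114 and 70 bases before its start, Aqp5 held 1 at 90 bases, and Mad2l1 held 3 at 154, 114 and 62 bases, all of them read as GGTCA. Kiss1 held TGACC, the same arm on the other strand, at 65 and 36 bases, and Timp1 held none. The full element, both arms with 3 bases between, which reads alike on either strand, was in 0 of these 5 windows.

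Over all 32851 windows of this length in the table, 21 (0.0639%) held the full element and 11577 (35.2%) held at least 1 arm on either strand, where each full element also counts as holding an arm. Among the 11609 tested genes with a window, 0 held the full element and 37.5% an arm. Of the genes past the threshold in the difference, described next, 22 negative and 10 positive ones had a window: 13 of the 22 (59.1%) and 3 of the 10 (30%) held an arm, and 0 held the full element. A match is a match of letters only, and the absence of one speaks only of these 250 bases.

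Across all genes, 41 of 14774 (0.278%) passed the threshold in the difference, an adjusted p under 0.05 by limma over all genes tested: 27 were negative (0.183%) and 14 positive (0.0948%). At an unadjusted p under 0.05 there were 1882. In ERKO alone 0 genes (0.0%) passed with E2 against oil, where the smallest adjusted p was 0.473 and 1068 genes had an unadjusted p under 0.05. In WT alone 116 genes (0.785%) changed with E2, 89 up (0.602%) and 27 down (0.183%), and all 41 were among them. Without ERKO E2 3 the difference held 63 genes (0.426%), 47 negative (0.318%) and 16 positive (0.108%), the ERKO response held 1 (0.00677%), Fos, and the WT response held 397 (2.69%), 284 up (1.92%) and 113 down (0.765%). All groups share 1 estimate of the spread, so the count in WT moves with a library of ERKO. The count also moved by over 1.5 times without single other libraries: 104 without ERKO E2 2, 25, 27 and 27 without ERKO oil 1, 2 or 3, and 74 without WT oil 3. The difference, the WT response and the ERKO response share libraries, so they are given side by side and not as independent results.

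For each of the 41 genes, the E2 and the oil libraries of WT were apart, with no value shared between the ranges, and the 95% interval of the ERKO change excluded the WT change. The choice of these genes by the difference favours both. Of all 14774 genes tested, the WT libraries were apart for 2338, and the ERKO interval excluded the WT change for 4432. For the 27 negative genes the ERKO change had a median of −0.08 on the log2 scale (−0.46 to 0.25), with an interval that held 0 for 26, and the WT change a median of 1.35 (0.49 to 3.72), all of them rises. Over all genes tested the median change was −0.03 in ERKO and 0.01 in WT. ERKO E2 and ERKO oil libraries overlapped for 23 of the 27. Most genes did the same in ERKO: of all 14774 tested, the interval held 0 for 13706 and the libraries overlapped for 12956. Under E2, 26 of these 27 genes were lower in ERKO than in WT past the threshold, where 192 genes (1.3%) differed over all tested, 152 of them lower (1.03%), and under oil 3 of the 27 differed, where 212 (1.43%) did over all tested. Leaving out ERKO E2 3, it was again 26 of the 27 under E2, where 1286 genes (8.7%) differed over all tested, 722 of them lower (4.89%), and 6 of the 27 under oil, where 3319 (22.5%) did. For the 14 positive genes the ERKO change had a median of 0.26 (−0.17 to 0.89), with an interval that held 0 for 11 and overlapping libraries for 10, and the WT change a median of −1.45 (−3.58 to −0.63), all of them falls. Of these 14, 6 were higher in ERKO than in WT under E2 (0.271% over all tested), and 8 were lower in ERKO than in WT under oil (0.684%). These counts were, without ERKO E2 3, 8 (3.82% over all tested) and 11 (10.5%). For the 27 and the 14 genes alike, the gaps between ERKO and WT share libraries with the difference. The choice by the difference therefore favours gaps of its sign under E2 and of the opposite sign under oil.

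**Figure D1:**
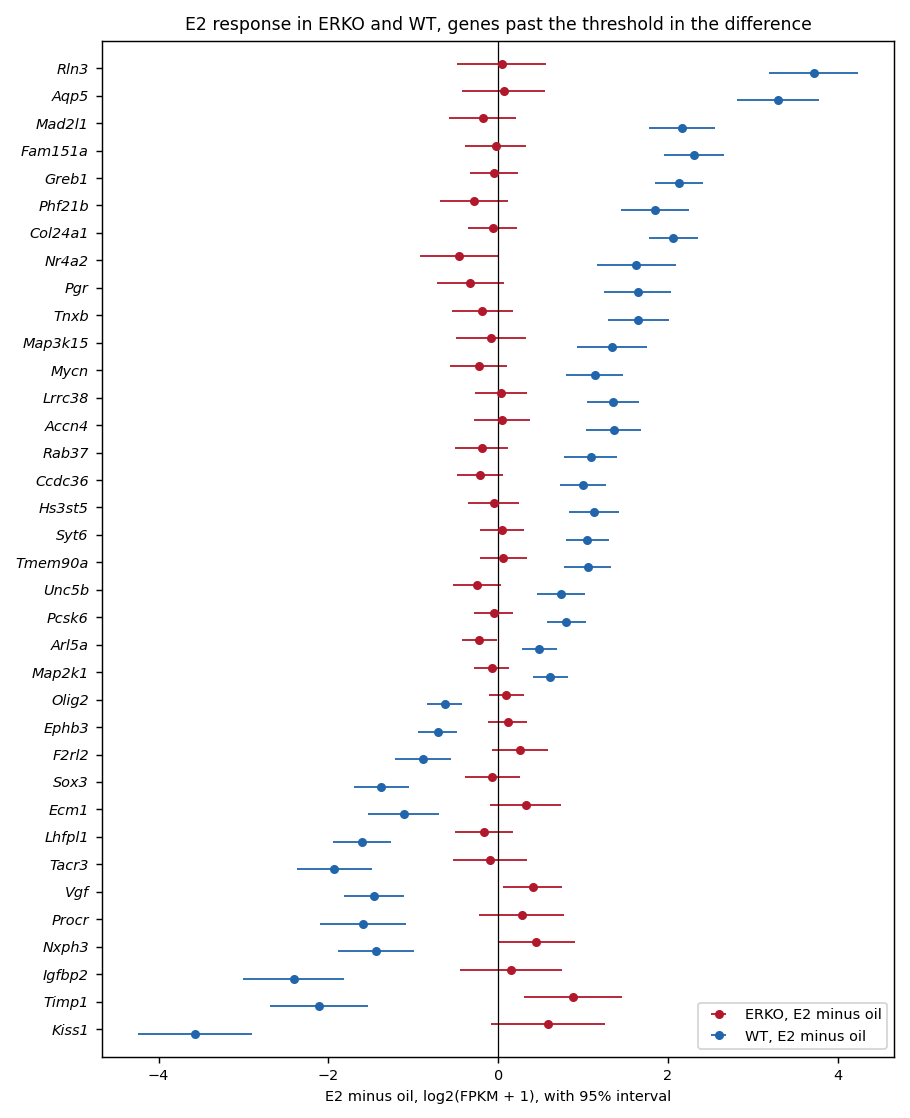
Change with E2 (E2 minus oil, log2(FPKM + 1), horizontal axis) in ERKO (red) and WT (blue) for the 36 genes past the threshold in the difference that carry a gene name, ordered by the difference. Points are estimates of the limma fit on 18 libraries and bars 95% intervals. ERKO points lie between −0.46 and 0.89, and WT points run from −3.58 for Kiss1 to 3.72 for Rln3. No red bar reaches the blue point of its gene, which the choice of genes by the difference favours.

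Among the negative genes were textbook targets of the receptor. Greb1, an early estrogen-induced gene of human breast cancer cells whose product binds the receptor, rose in WT and stayed low in ERKO. Greb1 had 0.280, 0.244 and 0.146 FPKM in ERKO E2 libraries and 0.306, 0.170 and 0.322 FPKM in ERKO oil libraries, against 5.24, 4.80 and 6.29 FPKM in WT E2 libraries and 0.513, 0.237 and 0.676 FPKM in WT oil libraries. The 3 WT E2 libraries stood above all others, and the ERKO E2 and ERKO oil ranges overlapped. Its E2 change was −0.05 (95% interval −0.33 to 0.23) in ERKO and 2.13 (95% interval 1.85 to 2.41) in WT, a difference of −2.18 ± 0.19 (adjusted p = 6.32e-05 by limma). The mean of WT E2 was 11.5 times that of WT oil. Pgr, the progesterone receptor, which estradiol is known to induce in hypothalamic neurons, followed the same order. Pgr had 4.39, 4.90 and 2.39 FPKM in ERKO E2 libraries and 4.76, 4.70 and 5.52 FPKM in ERKO oil libraries, against 13.9, 15.5 and 18.1 FPKM in WT E2 libraries and 3.29, 4.59 and 5.44 FPKM in WT oil libraries. The 3 WT E2 libraries were the highest, and the ranges of the other 3 groups overlapped. The change was −0.33 (95% interval −0.73 to 0.07) in ERKO and 1.64 (95% interval 1.25 to 2.04) in WT, and the difference −1.97 ± 0.26 (adjusted p = 0.00183), or −1.73 ± 0.20 without ERKO E2 3, the ERKO E2 library with the least Pgr.

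Other regulators of transcription were among them. Nr4a2, or Nurr1, an orphan nuclear receptor needed by midbrain dopamine neurons, had a difference of −2.08 ± 0.31 (adjusted p = 0.00617). Nr4a2 had 1.29, 1.75 and 0.451 FPKM in ERKO E2 libraries and 2.14, 1.73 and 1.76 FPKM in ERKO oil libraries, against 7.43, 8.92 and 8.39 FPKM in WT E2 libraries and 1.32, 2.25 and 2.53 FPKM in WT oil libraries. Its 3 WT E2 libraries were above all others and ERKO E2 3 was below all others, with an ERKO change of −0.46 (95% interval −0.93 to 0.01) and a WT change of 1.63 (95% interval 1.16 to 2.09). Without ERKO E2 3 the ERKO change was −0.19 and the difference −1.82 ± 0.26. Phf21b, a PHD finger protein, differed by −2.13 ± 0.27 (adjusted p = 0.00107), with an ERKO change of −0.29 and a WT change of 1.84. Mycn, a MYC family transcription factor, differed by −1.37 ± 0.22 (adjusted p = 0.0104). Mycn had 2.06, 2.63 and 1.89 FPKM in ERKO E2 libraries and 3.03, 2.62 and 2.54 FPKM in ERKO oil libraries, against 6.15, 8.94 and 6.43 FPKM in WT E2 libraries and 3.35, 2.37 and 2.40 FPKM in WT oil libraries. WT E2 was again the high group, and the other 3 groups shared a range from 1.89 to 3.35 FPKM.

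The largest negative difference past the threshold was that of Rln3, which encodes relaxin-3, a neuropeptide best known from the nucleus incertus of the brainstem. Rln3 had 0.404, 0.683 and 0 FPKM in ERKO E2 libraries and 0.402, 0.546 and 0 FPKM in ERKO oil libraries, against 11.4, 16.4 and 9.47 FPKM in WT E2 libraries and 0, 0 and 0 FPKM in WT oil libraries. Since WT oil was listed at 0 throughout, no ratio is given. On the log2 scale the change was 0.04 (95% interval −0.48 to 0.57) in ERKO and 3.72 (95% interval 3.19 to 4.24) in WT, and the difference −3.67 ± 0.35 (adjusted p = 9.69e-05). Aqp5, a water channel known from glands and lung, had the next largest at −3.23 ± 0.32 (adjusted p = 0.000139). Aqp5 had 0.319, 0.135 and 0.177 FPKM in ERKO E2 libraries and 0.0794, 0.216 and 0.170 FPKM in ERKO oil libraries, against 5.78, 14.6 and 8.33 FPKM in WT E2 libraries and 0, 0.0450 and 0 FPKM in WT oil libraries. Both genes were near or at 0 in ERKO with either treatment and in WT oil, and were read at 5 FPKM or more in every WT E2 library. A gene this low in the other groups reaches the minimum mean of 0.5 FPKM only through WT E2, so the filter favours this pattern. The same holds for Greb1 and for Col24a1 and Fam151a, described below, which averaged under that minimum outside WT E2.

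Among membrane proteins, Lrrc38, an auxiliary subunit of large-conductance potassium channels, differed by −1.32 ± 0.20 (adjusted p = 0.0077). Lrrc38 had 0.202, 0.114 and 0.261 FPKM in ERKO E2 libraries and 0.126, 0.250 and 0.129 FPKM in ERKO oil libraries, against 3.51, 5.07 and 3.58 FPKM in WT E2 libraries and 1.08, 0.997 and 0.823 FPKM in WT oil libraries. It was lower in ERKO than in WT with both treatments, at −2.07 ± 0.14 under E2 (adjusted p = 7.7e-07) and −0.75 ± 0.14 under oil (adjusted p = 0.0278). Accn4, the acid-sensing ion channel now named Asic4, differed by −1.32 ± 0.22 (adjusted p = 0.0107), with changes of 0.05 in ERKO and 1.36 in WT. Unc5b, a receptor for netrins, differed by −0.99 ± 0.19 and Syt6, a synaptotagmin, by −1.01 ± 0.17 (adjusted p = 0.0381 and 0.0136). Tmem90a, now Syndig1l, differed by −0.99 ± 0.19 (adjusted p = 0.0336) and was, like Lrrc38, already lower in ERKO than in WT under oil (−0.56, adjusted p = 0.047).

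Other negative genes encode matrix proteins or enzymes that modify secreted and matrix proteins, grouped here by known role after their values were seen. Col24a1, a fibrillar collagen chain, differed by −2.13 ± 0.19 (adjusted p = 6.32e-05). Col24a1 had 0.447, 0.278 and 0.137 FPKM in ERKO E2 libraries and 0.415, 0.292 and 0.316 FPKM in ERKO oil libraries, against 5.82, 5.85 and 5.10 FPKM in WT E2 libraries and 0.544, 0.496 and 0.701 FPKM in WT oil libraries. The 3 WT E2 libraries were far above the rest, of which a WT oil library was the highest. Tnxb, the matrix glycoprotein tenascin X, differed by −1.84 ± 0.24 (adjusted p = 0.00144). Tnxb had 2.07, 0.939 and 1.16 FPKM in ERKO E2 libraries and 1.88, 1.54 and 1.61 FPKM in ERKO oil libraries, against 7.58, 9.27 and 7.96 FPKM in WT E2 libraries and 1.60, 2.27 and 2.01 FPKM in WT oil libraries. Only the WT E2 range stood apart from the other 3. Hs3st5, an enzyme that sulfates heparan sulfate chains, differed by −1.18 ± 0.20, and Pcsk6, a proprotein convertase that acts in the secretory pathway and at the matrix, by −0.85 ± 0.15 (adjusted p = 0.0132 and 0.0239).

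The remaining named negative genes have varied roles. Mad2l1, a component of the spindle assembly checkpoint of dividing cells, had the third largest negative difference past the threshold, −2.35 ± 0.26 (adjusted p = 0.00034). Mad2l1 had 3.32, 3.66 and 2.92 FPKM in ERKO E2 libraries and 3.37, 4.20 and 4.06 FPKM in ERKO oil libraries, against 20.8, 23.7 and 19.8 FPKM in WT E2 libraries and 4.73, 2.51 and 5.18 FPKM in WT oil libraries. The 3 WT E2 libraries were the highest by far, and the other 3 groups shared a range. The list of 21 spindle and cell cycle genes held no other call: of its 13 tested members Mad2l1 alone passed, and the median difference was −0.01. Ccdc36, now Iho1 and known for its part in meiotic recombination, differed by −1.21 ± 0.18 (adjusted p = 0.00617). The kinases Map3k15 and Map2k1 (MEK1) differed by −1.42 ± 0.27 and −0.69 ± 0.14, and the small GTPases Rab37 and Arl5a by −1.28 ± 0.21 and −0.71 ± 0.14 (adjusted p = 0.0381, 0.0439, 0.00903 and 0.0381). Arl5a was the 1 negative gene whose ERKO interval excluded 0, at −0.22 (95% interval −0.42 to −0.02), against 0.49 (95% interval 0.28 to 0.69) in WT. Fam151a had the fourth largest negative difference past the threshold, −2.33 ± 0.24 (adjusted p = 0.000139). Its WT E2 libraries held 3.56, 6.91 and 4.37 FPKM and every library of the other 3 groups at most 0.349 FPKM. In the annotation 65.7% of its exon bases are shared with Acot11 on the opposite strand, and whether the counting used strand is not given in the sources used here, so its reads cannot be assigned to it with certainty.

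**Figure D2:**
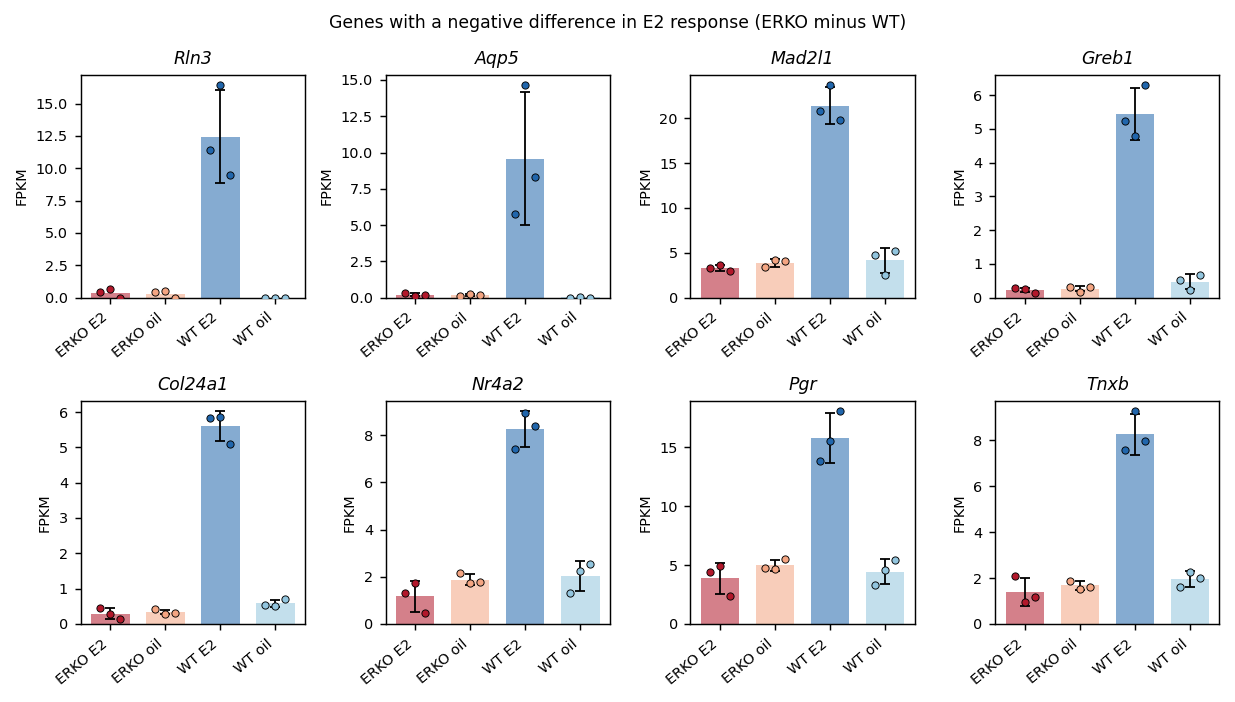
FPKM (vertical axes, linear, from 0) of 8 genes with a negative difference in ERKO E2, ERKO oil, WT E2 and WT oil. Bars are means, points single libraries and error bars SD over 3 libraries, left out where a library is at 0. In every panel WT E2 stands above the other 3 groups, such as Greb1 at 4.80 to 6.29 FPKM against at most 0.676 FPKM elsewhere.

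The largest positive difference past the threshold was that of Kiss1, which encodes kisspeptin, the peptide that drives gonadotropin-releasing hormone neurons. Kiss1 had 481, 306 and 629 FPKM in ERKO E2 libraries and 265, 279.98 and 369.6 FPKM in ERKO oil libraries, against 34.8, 58.3 and 20.9 FPKM in WT E2 libraries and 520.2, 359.5 and 419 FPKM in WT oil libraries. All ERKO libraries were far above all WT E2 libraries, and ERKO E2, ERKO oil and WT oil overlapped. The change was 0.58 (95% interval −0.09 to 1.26) in ERKO and −3.58 (95% interval −4.25 to −2.91) in WT, and the difference 4.16 ± 0.45 (adjusted p = 0.000242). Without ERKO E2 3, the ERKO library with the most Kiss1, it was 3.92 ± 0.46 (adjusted p = 0.00131). Under oil Kiss1 did not differ past the threshold between ERKO and WT (−0.50 ± 0.32, adjusted p = 0.36). In the annotation 77.0% of its exon bases are shared with other genes of the same strand, Golt1a and a read-through model, so a share of the reads may be theirs.

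Tacr3, the receptor for neurokinin B that KNDy neurons use among themselves, was the other KNDy gene past the threshold. Tacr3 had 6.66, 7.73 and 5.69 FPKM in ERKO E2 libraries and 7.59, 6.63 and 7.36 FPKM in ERKO oil libraries, against 2.003, 3.10 and 2.70 FPKM in WT E2 libraries and 12.8, 8.53 and 18.1 FPKM in WT oil libraries. The WT E2 libraries were the lowest 3 of the 12 and the WT oil libraries the highest 3, with the ERKO libraries of both treatments between. Its change was −0.10 (95% interval −0.53 to 0.34) in ERKO and −1.93 (95% interval −2.37 to −1.49) in WT, and the difference 1.83 ± 0.29 (adjusted p = 0.00903). Sox3, a transcription factor of neural progenitors and of the hypothalamus, differed by 1.31 ± 0.21 (adjusted p = 0.0104). Sox3 had 19.6, 25.6 and 17.2 FPKM in ERKO E2 libraries and 19.5, 22.9 and 22.3 FPKM in ERKO oil libraries, against 11.99, 10.8 and 8.95 FPKM in WT E2 libraries and 29.5, 29.7 and 27.4 FPKM in WT oil libraries. It followed the order of Tacr3, with ERKO groups that overlapped. Igfbp2, which binds insulin-like growth factors, differed by 2.56 ± 0.40 (adjusted p = 0.0086). Igfbp2 had 22.2, 21.8 and 18.4 FPKM in ERKO E2 libraries and 17.6, 20.7 and 17.6 FPKM in ERKO oil libraries, against 4.01, 3.35 and 8.23 FPKM in WT E2 libraries and 29.8, 24.8 and 37.01 FPKM in WT oil libraries. Here too WT E2 was lowest, and ERKO E2 was above WT E2 by 1.89 ± 0.28 (adjusted p = 0.002). For Kiss1, Tacr3, Sox3 and Igfbp2 the gap between ERKO and WT passed under E2 and did not pass under oil. The gap under oil did pass without ERKO E2 3 for Tacr3 (−0.73, adjusted p = 0.0161) and Sox3 (−0.41, adjusted p = 0.0388).

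In 8 of the positive genes (11 without ERKO E2 3) the difference held a gap under oil. Timp1, an inhibitor of matrix metalloproteinases, showed it most. Timp1 had 4.17, 3.21 and 6.28 FPKM in ERKO E2 libraries and 2.12, 1.498 and 2.23 FPKM in ERKO oil libraries, against 2.69, 2.31 and 1.68 FPKM in WT E2 libraries and 15.8, 10.1 and 13.3 FPKM in WT oil libraries. The 3 WT oil libraries were above all others, and ERKO oil overlapped with WT E2. The gap of ERKO E2 from WT E2 was 0.76 ± 0.27 and did not pass (adjusted p = 0.262), and that of ERKO oil from WT oil was −2.24 ± 0.27 (adjusted p = 0.00699). The ERKO change was 0.89 (95% interval 0.31 to 1.46), not past the threshold (adjusted p = 0.473), and the WT change −2.12 (95% interval −2.69 to −1.54), which made a difference of 3.0 ± 0.38 (adjusted p = 0.00129). Timp1 lies within Syn1 in the annotation.

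Vgf, which encodes a granin-like precursor of secreted peptides, had the same form. Vgf had 359.7, 445 and 373 FPKM in ERKO E2 libraries and 283, 313 and 289 FPKM in ERKO oil libraries, against 298, 252 and 184 FPKM in WT E2 libraries and 738, 649.7 and 605 FPKM in WT oil libraries. ERKO E2 and ERKO oil libraries did not overlap, and both lay below all WT oil libraries. The gap under oil was −1.16 ± 0.17 (adjusted p = 0.0124), the change 0.40 (95% interval 0.05 to 0.76) in ERKO and −1.46 (95% interval −1.81 to −1.11) in WT, and the difference 1.87 ± 0.23 (adjusted p = 0.00107). Nxph3, a neurexophilin that binds neurexins, had both gaps past the threshold, 0.98 ± 0.21 under E2 and −0.91 ± 0.21 under oil (adjusted p = 0.0349 and 0.0473), and a difference of 1.89 ± 0.30 (adjusted p = 0.00903). Nxph3 had 4.80, 4.64 and 5.16 FPKM in ERKO E2 libraries and 3.42, 3.15 and 3.34 FPKM in ERKO oil libraries, against 1.17, 3.17 and 1.90 FPKM in WT E2 libraries and 8.75, 5.76 and 6.94 FPKM in WT oil libraries. All ERKO E2 libraries were above all ERKO oil libraries, though the ERKO change of 0.45 (95% interval −0.01 to 0.90) did not pass.

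Procr, the endothelial receptor for protein C, differed by 1.87 ± 0.34 (adjusted p = 0.0244). Procr had 1.61, 1.82 and 4.76 FPKM in ERKO E2 libraries and 2.06, 1.60 and 2.01 FPKM in ERKO oil libraries, against 1.56, 0.893 and 1.11 FPKM in WT E2 libraries and 5.83, 5.26 and 5.58 FPKM in WT oil libraries. ERKO E2 3 was far above the other ERKO libraries, and without it the ERKO change was −0.09 and the difference 1.51 ± 0.23 (adjusted p = 0.00465). Lhfpl1 and Ecm1, a secreted matrix protein, differed by 1.44 ± 0.23 and 1.44 ± 0.28 (adjusted p = 0.00903 and 0.0389), Ephb3, an ephrin receptor, by 0.82 ± 0.15, and Olig2, a transcription factor of the oligodendrocyte lineage, by 0.73 ± 0.14 (adjusted p = 0.0336 and 0.0381). All 4 were lower in ERKO than in WT under oil past the threshold (−0.81, −1.05, −0.47 and −0.53). F2rl2, a protease-activated receptor that lies within Iqgap2, differed by 1.14 ± 0.22 (adjusted p = 0.0381) and no longer passed without ERKO E2 3 (1.05 ± 0.23, adjusted p = 0.0595). Beside Olig2, the summed FPKM of 8 oligodendrocyte precursor markers, of which Olig2 is one, was 129, 138 and 143 in ERKO E2 and 117, 117 and 115 in ERKO oil, against 157, 142 and 134 in WT E2 and 169, 184 and 158 in WT oil, and its part in the result was not tested.

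**Figure D3:**
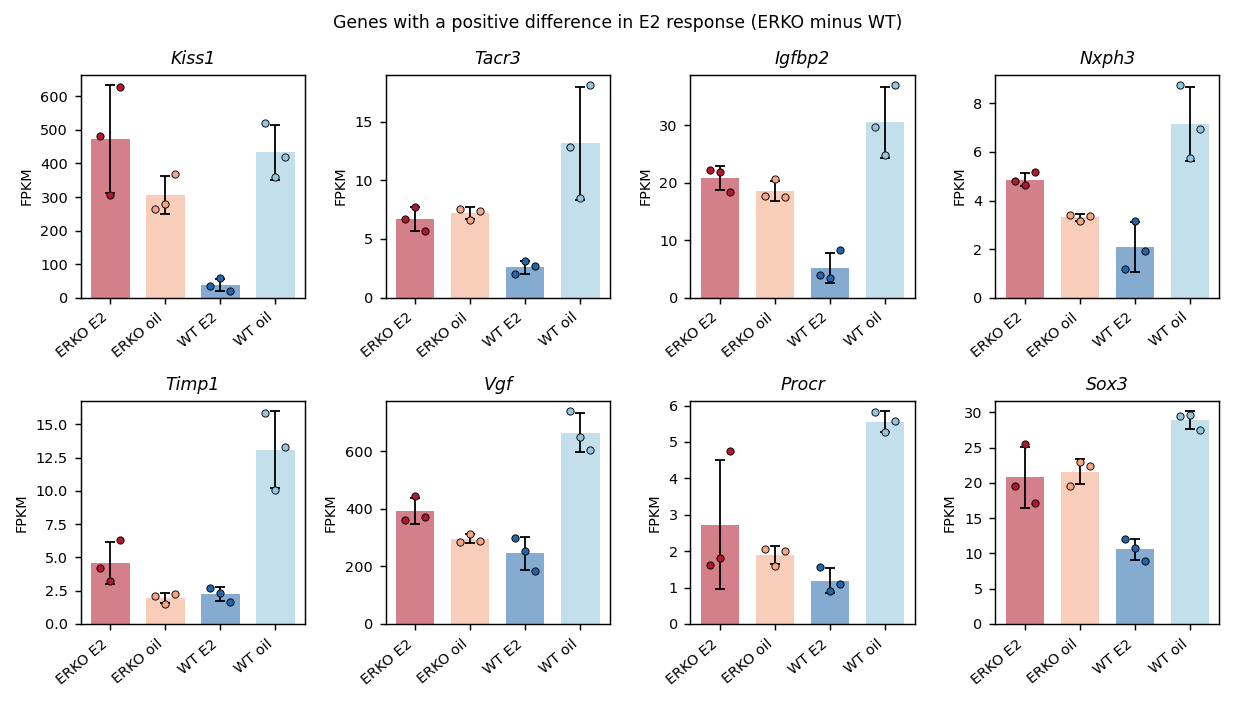
FPKM (vertical axes, linear, from 0) of 8 genes with a positive difference in ERKO E2, ERKO oil, WT E2 and WT oil. Bars are means, points single libraries and error bars SD over 3 libraries. WT E2 lies below WT oil in every panel, and in every panel except that of Kiss1 both ERKO groups also lie below WT oil.

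Leaving ERKO E2 3 out changed which genes passed and, for some genes, the size of the difference. Of the 41 genes, 39 also passed without it (95.1% of the 41 and 61.9% of the 63), F2rl2 and the clone-named C130060K24Rik did not, and 24 passed only without it, 21 negative and 3 positive. Of these 24, 22 had also passed in WT in that fit, where 2.69% of all genes did, which the choice by the difference favours. The exceptions were Gpr17, described further on, and Fos, the activity-dependent transcription factor, which passed in ERKO. Fos had 11.8, 11.7 and 19.8 FPKM in ERKO E2 libraries and 21, 30.6 and 26.01 FPKM in ERKO oil libraries, against 16.5, 15.2 and 17.2 FPKM in WT E2 libraries and 14.9, 17 and 13.3 FPKM in WT oil libraries. ERKO E2 1 and 2 were the lowest of the 12 libraries, and all ERKO oil libraries were above all WT libraries. Without ERKO E2 3 the change of Fos was −1.06 (95% interval −1.32 to −0.80) in ERKO (adjusted p = 0.00308) and 0.11 (95% interval −0.12 to 0.35) in WT, and the difference −1.17 ± 0.17 (adjusted p = 0.00252). With all libraries the difference was −0.94 ± 0.23 (adjusted p = 0.124). Under oil, Fos was higher in ERKO than in WT in both fits (0.73, adjusted p = 0.0434 with all libraries).

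Among the other negative ones, Gstm5, a glutathione transferase, and Pcp4, a regulator of calmodulin, turned on that library alone. Pcp4 had 222, 202 and 625 FPKM in ERKO E2 libraries and 244, 268 and 236 FPKM in ERKO oil libraries, against 617, 564 and 572 FPKM in WT E2 libraries and 346, 313 and 278 FPKM in WT oil libraries. ERKO E2 3 held more Pcp4 than any WT library, and the other 2 ERKO E2 libraries less than any WT library, so that the difference was −1.13 ± 0.20 without it (adjusted p = 0.0127) and −0.62 ± 0.43 with it (0.523). In the annotation 37.9% of the exon bases of Pcp4 are shared with Igsf5 on the same strand. Gstm5 stood at −0.76 ± 0.13 without the library (adjusted p = 0.0109) and −0.34 ± 0.34 with it (0.647). For Gfra1, a co-receptor for the neurotrophic factor GDNF, leaving the library out made the difference smaller and the call pass. Gfra1 had 6.67, 11.5 and 2.60 FPKM in ERKO E2 libraries and 7.78, 7.70 and 9.70 FPKM in ERKO oil libraries, against 20.5, 33.7 and 32.6 FPKM in WT E2 libraries and 9, 10.7 and 10.1 FPKM in WT oil libraries. WT E2 was above all other groups, and the difference was −1.36 ± 0.27 without ERKO E2 3 (adjusted p = 0.031) and −1.84 ± 0.43 with it (0.108).

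Nts, the peptide neurotensin, stood at −1.33 ± 0.25 without the library (adjusted p = 0.0209), with an ERKO change of −0.29 and a WT change of 1.03. Myc, a transcription factor that estradiol induces in breast cancer cells, passed narrowly without it (−1.13 ± 0.24, adjusted p = 0.0475) and missed narrowly with it (−1.11 ± 0.22, 0.0548). Myc had 2.93, 2.64 and 2.96 FPKM in ERKO E2 libraries and 2.36, 2.84 and 2.50 FPKM in ERKO oil libraries, against 11.7, 9.78 and 9.36 FPKM in WT E2 libraries and 3.14, 4.68 and 3.78 FPKM in WT oil libraries. The WT E2 libraries of Myc were above all others in either case. Scoc, Galnt6, Spsb1 and Arl4a also passed without the library, at −1.15, −1.0, −0.86 and −0.81 (adjusted p = 0.0416, 0.0488, 0.041 and 0.0475). The authors' tables give the Galnt6 value a failed status in 3 of the 18 libraries.

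The 3 positive ones were Pdyn, Gpr17 and Jun. Pdyn encodes dynorphin, the third peptide of KNDy neurons. Pdyn had 79.7, 89.1 and 40.8 FPKM in ERKO E2 libraries and 68, 80.9 and 80.6 FPKM in ERKO oil libraries, against 66.9, 97.2 and 69.3 FPKM in WT E2 libraries and 193, 132 and 189.6 FPKM in WT oil libraries. WT oil was above every other group, and ERKO E2 3 was the lowest library of all. Without it the difference was 1.27 ± 0.24 (adjusted p = 0.0209), and with it 0.93 ± 0.34 (0.291). ERKO oil stood at −1.14 ± 0.24 relative to WT oil (adjusted p = 0.0361), a gap under oil like that of Timp1 and Vgf. Gpr17, a receptor of oligodendrocyte precursors that lies within Lims2, stood at 0.94 ± 0.18 without the library (adjusted p = 0.0216), from changes of 0.59 in ERKO and −0.36 in WT that did not pass, and a gap of −1.06 under oil that did (adjusted p = 0.000489). Jun, which pairs with Fos in the AP-1 factor, stood at 0.55 ± 0.11 (adjusted p = 0.0341).

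**Figure D4:**
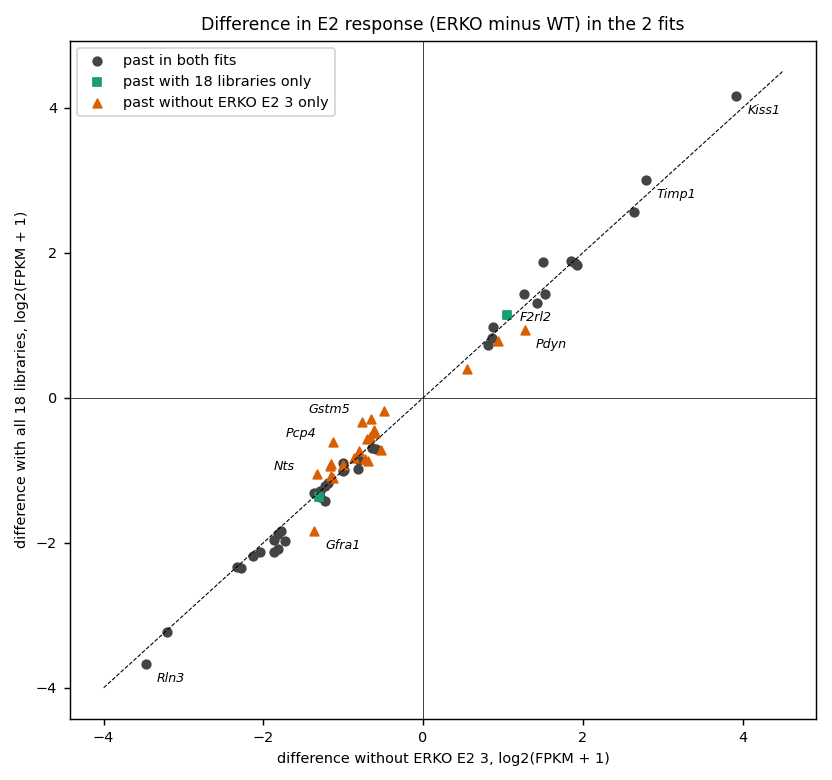
Difference in E2 response (ERKO minus WT, log2(FPKM + 1)) with all 18 libraries (vertical axis) against the same without ERKO E2 3 (horizontal axis) for the 65 genes past the threshold in either fit. Circles passed in both fits (39 genes), squares only with all libraries (2) and triangles only without ERKO E2 3 (24), and the dashed line marks equal values. Kiss1 and Rln3 lie near the line at its ends, while Pcp4 and Gstm5 lie nearer 0 with the library included.

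Several peptide genes of the arcuate nucleus did not pass. Tac2, which encodes neurokinin B, fell in WT and its difference was 1.36 (95% interval 0.65 to 2.07) (adjusted p = 0.119). Tac2 had 861, 524 and 896 FPKM in ERKO E2 libraries and 585, 589 and 858 FPKM in ERKO oil libraries, against 468, 628 and 532 FPKM in WT E2 libraries and 1417, 1074 and 1278 FPKM in WT oil libraries. WT oil was above every other group, and both ERKO groups overlapped with each other. The interval excluded 0 without passing the threshold over all genes, and the same held for Pomc and Cartpt. Pomc, the precursor of the satiety peptide α-MSH, had a difference of 1.38 (95% interval 0.62 to 2.13) (adjusted p = 0.143). Pomc had 1044, 675 and 1646 FPKM in ERKO E2 libraries and 663, 596 and 618 FPKM in ERKO oil libraries, against 909, 861 and 701 FPKM in WT E2 libraries and 1418, 1162 and 1232 FPKM in WT oil libraries. Cartpt, a second anorexigenic peptide, had a difference of 1.61 (95% interval 0.73 to 2.49) (adjusted p = 0.141). Cartpt had 507, 366 and 1009 FPKM in ERKO E2 libraries and 391, 345 and 348 FPKM in ERKO oil libraries, against 329.95, 273 and 219 FPKM in WT E2 libraries and 506, 560.4 and 499 FPKM in WT oil libraries. In both, ERKO E2 3 was the highest ERKO library. Without ERKO E2 2 all 3 passed (adjusted p = 0.0301, 0.0185 and 0.0339), and without ERKO E2 3 none did (0.108, 0.0867 and 0.0901).

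For the hunger peptides, the difference was −0.35 (95% interval −1.33 to 0.63) for Agrp and 0.13 (95% interval −0.71 to 0.96) for Npy. For genes of the growth hormone axis it was −0.07 (95% interval −0.86 to 0.72) for Ghrh, the releasing hormone, and 0.67 (95% interval 0.05 to 1.28) for Sst, somatostatin. Th, the enzyme that sets the rate of dopamine synthesis, had 0.53 (95% interval −0.07 to 1.12), Gal, galanin, 0.84 (95% interval −0.00 to 1.69), and Prlr, the prolactin receptor, −0.38 (95% interval −0.93 to 0.17). Their adjusted p ran from 0.371 for Sst to 0.932 for Ghrh. With all libraries the interval of Sst excluded 0 without passing the threshold, and those of the other 6 held 0, so differences within them are not excluded. Without ERKO E2 3 the difference was −0.49 (95% interval −0.93 to −0.05) for Ghrh, with an adjusted p of 0.318 by limma. In that fit it was −0.71 (95% interval −1.61 to 0.20) for Agrp and 0.42 (95% interval −0.12 to 0.95) for Gal, and none of the 7 passed. ERKO E2 3 held 193 FPKM of Ghrh, and ERKO E2 1 and 2 held 88.1 and 72.3 FPKM. With all libraries Gal was the 1 of these 7 genes with a gap in both treatments past the threshold, lower in ERKO than in WT, at −1.33 ± 0.28 under E2 and −2.17 ± 0.28 under oil (adjusted p = 0.0303 and 0.00818). Without ERKO E2 3 both gaps of Ghrh passed as well, at −1.12 under E2 and −0.63 under oil (adjusted p = 0.000606 and 0.00677 by limma).

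Fixed lists of genes, chosen with earlier results of these data known, were read by counts and medians. Over all genes tested the median was −0.03 and 0.278% passed. Without ERKO E2 3 the median was −0.02 and 0.426% passed. Of 20 tested genes of KNDy neurons and reproductive peptides, 2 were positive (Kiss1 and Tacr3) and 0 negative, with a median of 0.25 (range −0.70 for Nmu to 4.16), and Pdyn joined them without ERKO E2 3 (median 0.30). Of 20 tested estrogen-responsive genes, 2 were negative (Greb1 and Pgr) and 0 positive, with a median of −0.35 (range −2.18 to 0.69 for Rprm), and Myc joined them without ERKO E2 3 (median −0.27). Of 15 steroid receptors and coregulators Pgr alone passed, and their median was −0.26 with all libraries and 0.03 without ERKO E2 3. The list of 24 dopamine, prolactin and growth hormone genes held Nr4a2 as its 1 call (median 0.03), with Nts added and a median of −0.13 without ERKO E2 3. The 23 matrix genes and proteases had calls in both directions, negative for Col24a1 and Tnxb and positive for Timp1, around a median of −0.03 (0.03 without ERKO E2 3). The medians of the matrix, dopamine and spindle lists lay within 0.03 of 0 and changed sign with the scaling of the libraries.

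Peptide processing genes and granins (16 tested) had Vgf as the 1 call and a median of 0.11 that became −0.16 under quantile normalization and −0.07 without ERKO E2 3. Growth factor and insulin-like growth factor binding genes (17 tested) had Igfbp2 as the 1 call, with medians of −0.11 with all libraries, 0.28 without ERKO E2 3 and 0.04 under quantile normalization. The 20 immediate early genes had no call with all libraries (median −0.12), and Jun positive and Fos negative without ERKO E2 3 (median 0.02). No member passed in either fit among 25 energy balance genes (median 0.13), 26 potassium channels (−0.11), 25 calcium, HCN, TRP and sodium channels (−0.36), 26 GABA and glutamate genes (−0.18), 21 interferon and MHC class I genes (0.29) and 15 heat shock chaperones (0.44). These medians without ERKO E2 3 were 0.07 for energy balance genes, 0.07 for potassium channels, 0.02 for calcium, HCN, TRP and sodium channels, −0.09 for GABA and glutamate genes, 0.23 for interferon and MHC class I genes and 0.10 for heat shock chaperones, so that both channel lists turned sign. In the 14 lists of markers, for cell types and for tissue next to the arcuate nucleus, the calls were Olig2 among oligodendrocyte precursor markers (joined by Gpr17 without ERKO E2 3) and Kiss1 among arcuate markers.

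**Figure D5:**
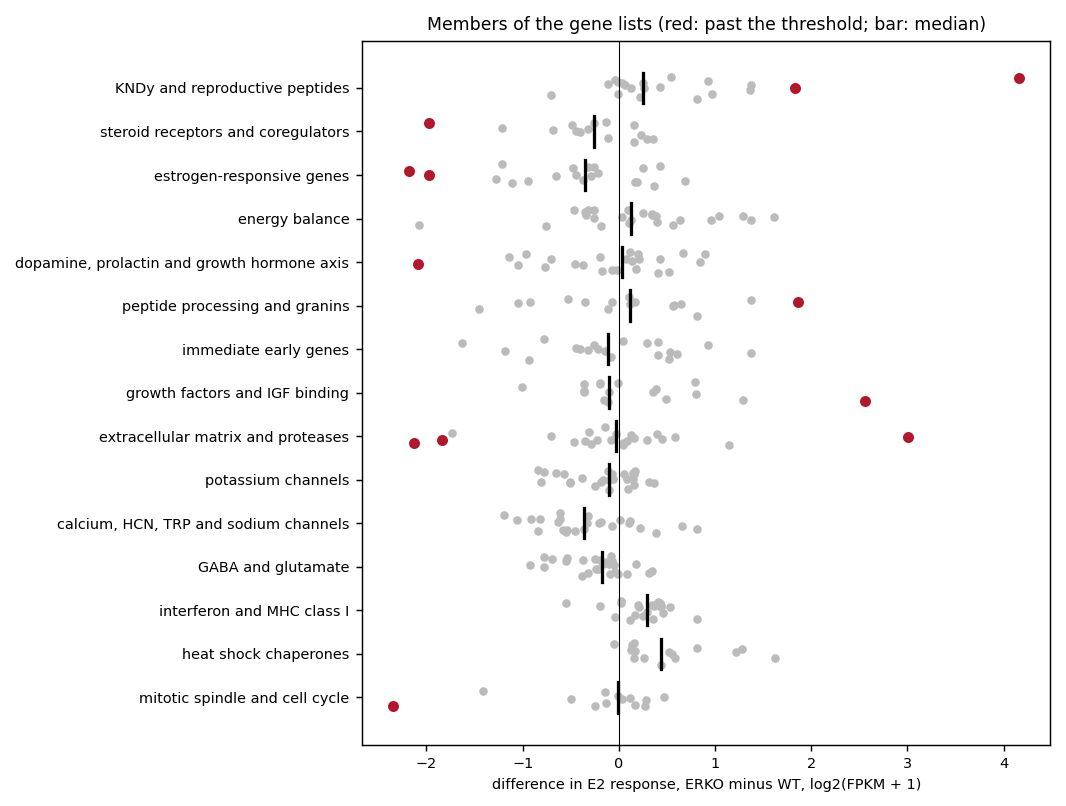
Difference in E2 response (ERKO minus WT, log2(FPKM + 1), horizontal axis) of each tested member of 15 gene lists, with all 18 libraries. Red points passed the threshold, grey points did not, and black bars are the medians of the lists, which lie between −0.36 and 0.44. Kiss1 (4.16) and Timp1 (3.00) are the 2 rightmost red points, and Mad2l1 (−2.35) the leftmost.

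The calls differed in how much they rested on single libraries. Of the 36 named genes past the threshold, 23 passed in each of the 12 fits that left out 1 ERKO or WT library. The 13 that did not were Arl5a, Hs3st5, Map2k1, Map3k15, Pcsk6, Syt6, Tmem90a and Unc5b among the negative ones and Ecm1, Ephb3, F2rl2, Olig2 and Procr among the positive ones, with the highest adjusted p in such a fit between 0.0577 for Hs3st5 and 0.141 for Map2k1. The 15 that passed in these 12 fits and in each of the 13 other alternatives that gave them a value were Greb1, Pgr, Nr4a2, Phf21b, Rln3, Aqp5, Col24a1, Tnxb, Mad2l1 and Fam151a among the negative ones and Kiss1, Timp1, Igfbp2, Nxph3 and Sox3 among the positive ones. None of the 36 changed sign in any of these fits.

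The WT calls outside the 41 were read for responses that ERKO might share. Of the 116 genes past the threshold in WT, the 75 others all had a difference opposite in sign to their WT change, which a choice by the WT change favours, because the WT libraries enter both values. The 95% interval of the difference held 0 for 1 of them, the clone-named 1500009L16Rik, named here after its values were seen. Its E2 change was 0.34 in ERKO and 0.88 in WT, and without ERKO E2 3, its highest ERKO library, 0.07 in ERKO. In the fit without ERKO E2 3, 336 of the 397 genes past the threshold in WT did not pass in the difference, again all with a difference opposite in sign to the WT change. The interval of the difference held 0 for 11 of these, and in all 11 the ERKO change had the sign of the WT change. An interval that holds 0 keeps the 2 changes close, so the choice of these 11 favours the shared sign. The ERKO interval excluded 0 on the side of the WT change for 2 of the 336, Scgn, which encodes the calcium-binding protein secretagogin, and Myrip, a myosin and Rab interacting protein, both named after their values were seen. Over all 14774 genes tested, the ERKO change had an unadjusted p under 0.05 by limma in that fit for 226, in either direction. The estimate for Scgn was −0.42 (95% interval −0.73 to −0.11) in ERKO, not past the threshold, and −0.78 in WT in that fit, while the left-out library held 15.9 FPKM of Scgn, above ERKO E2 1 and 2 (6.90 and 5.12 FPKM). In KIKO mice, in the fit with all 18 libraries, E2 against oil passed for 0 of the 41 genes (1 gene, 0.00677%, over all tested). The median KIKO change was 0.03 over the 27 negative genes and −0.36 over the 14 positive genes (−0.85 to 0.27). Its 95% interval held 0 for 26 of the 27 and for 7 of the 14, and for 14634 of all 14774 genes tested. The KIKO change was −0.85 ± 0.32 for Kiss1, −0.75 ± 0.21 for Tacr3, −0.75 ± 0.15 for Sox3 and 0.08 ± 0.13 for Greb1.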

How the data were processed

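The authors deposited 1 table per library with values in FPKM, computed with TopHat2 2.0 and Cuffdiff on mm10, per the submitters' processing notes. The annotation and the use of strand are not given in the sources used here. The listed gene positions are not those of that build (4.75% of 20871 symbols started within 1000 bases of their GRCm38 start), so chromosomes are given alone. The tables hold no fragment totals; relative depth (0.728 to 1.5) was read from the authors' confidence bounds, in FPKM, over 2862 genes.

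All 18 tables listed the same 23699 entries, and the 248 symbols with several entries were summed. Of 14831 genes averaging 0.5 FPKM or more, 57 small RNA genes were left out and 14774 tested. limma 3.58.1 in R 4.3.3 was fitted to log2(FPKM + 1) with 6 group means on 18 libraries and 12 residual degrees of freedom, its variances moderated along a trend with the mean and robustly, two-sided, with Benjamini-Hochberg adjustment and a threshold of 0.05. The pseudocount of 1 makes changes of low genes smaller than their ratio. Values are given as estimate ± SE of the fit. The scripts were tested on simulated data. Python 3.11.15 was used with pandas 2.3.3, numpy 2.4.6 and matplotlib 3.10.9.

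Samples were grouped by the labels. Named were Esr1, every gene past the threshold except clone-named ones, up to 10 in each direction that passed only without ERKO E2 3, list members past the threshold, and a panel of arcuate genes. The contrast, lists and panel were chosen with earlier results of these data known. Alternatives changed the pseudocount, filter, scaling, variance model, libraries and a replicate block. The replicate numbers were not used to pair the libraries, except in the replicate block.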

Additional observations from a re-analysis of the deposited data

Results flagged for a closer look

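Every result here was flagged because the E2 response differed between ERKO and WT by a test of the difference itself, in the limma fit over all 14774 genes with Benjamini-Hochberg adjustment. Values are differences on log2(FPKM + 1), ERKO minus WT.

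With all 18 libraries the negative differences were −3.67 for Rln3, −3.23 for Aqp5, −2.35 for Mad2l1, −2.33 for Fam151a, −2.18 for Greb1, −2.13 for Phf21b, −2.13 for Col24a1, −2.08 for Nr4a2, −1.97 for Pgr and −1.84 for Tnxb. Smaller negative ones were −1.42 for Map3k15, −1.37 for Mycn, −1.32 for Lrrc38, −1.32 for Accn4, −1.28 for Rab37, −1.21 for Ccdc36, −1.18 for Hs3st5, −1.01 for Syt6, −0.99 for Tmem90a, −0.99 for Unc5b, −0.85 for Pcsk6, −0.71 for Arl5a and −0.69 for Map2k1. Positive ones were 4.16 for Kiss1, 3.00 for Timp1, 2.56 for Igfbp2, 1.89 for Nxph3, 1.87 for Procr, 1.87 for Vgf, 1.83 for Tacr3, 1.44 for Lhfpl1, 1.44 for Ecm1, 1.31 for Sox3, 1.14 for F2rl2, 0.82 for Ephb3 and 0.73 for Olig2.

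Without ERKO E2 3 further genes passed, at −1.36 for Gfra1, −1.33 for Nts, −1.17 for Fos, −1.15 for Scoc, −1.13 for Pcp4, −1.13 for Myc, −1.0 for Galnt6, −0.86 for Spsb1, −0.81 for Arl4a and −0.76 for Gstm5. The positive ones were 1.27 for Pdyn, 0.94 for Gpr17 and 0.55 for Jun. Fos is the 1 gene of this set that passed in ERKO and did not in WT.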

How the results depend on the processing

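With 3 libraries per group and no fragment totals in the tables, precision is limited by the libraries, and genes near 0 FPKM rest on few fragments. None of the 36 named genes past the threshold changed sign under any alternative, while 3 of those that did not pass, Esr1, Ghrh and Npy, did under at least 1. Leaving out 1 library at a time gave 25 to 104 genes past the threshold, 8 to 40 positive and 17 to 64 negative (41, 14 and 27 with all). The fewest were without ERKO oil 1 and the most without ERKO E2 2. Without WT oil 3 there were 74. Fits with only the 12 ERKO and WT libraries gave 18 genes (6 positive, 12 negative), and 19 of the 36 named genes lost their call there, among them Tacr3 (adjusted p = 0.0724). The same without ERKO E2 3, chosen after seeing the data, gave 25 (8 and 17). Quantile normalization gave 26 genes (11 and 15) and lost the calls of 14 of the 36, Accn4, Arl5a, Ccdc36, F2rl2, Hs3st5, Lrrc38, Map2k1, Mycn, Pcsk6, Procr, Rab37, Syt6, Tmem90a and Vgf (adjusted p 0.0562 to 0.12), while Pomc passed (0.0441). Weights for each library gave 73 (21 and 52), with the lowest weight, 0.051, on ERKO E2 3. Median ratio scaling gave 40, a pseudocount of 0.1 gave 31 and lost 7 of the 36 (Ecm1, F2rl2, Lrrc38, Map2k1, Map3k15, Tmem90a and Unc5b, with Lrrc38 at an adjusted p of 0.28), no filter on low values 49, a mean of at least 2 FPKM 30, no variance trend 44, and keeping small RNA genes or leaving out failed values 41. The cause of these changes was not tested, beyond the fewer libraries or genes that a setting fits.

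The main fit did not pair libraries by replicate number. Over 18 same-numbered pairs the correlation of deviations from the group means ran from −0.395 to 0.383. The 2 above 0.1 were both of WT E2 with WT oil, 0.29 for replicate 1 and 0.383 for replicate 3. With a replicate block 28 genes passed, 9 positive and 19 negative.

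Calls lost without single libraries were those of Syt6 (without ERKO oil 1 or 3), Hs3st5 (without ERKO oil 1 or 3 or WT E2 3) and Pcsk6 (without ERKO oil 1 or 2, WT E2 2 or 3 or WT oil 1 or 2). Procr was lost without any 1 of the ERKO oil libraries, WT E2 2 or 3 or WT oil 1 or 2, and F2rl2 without ERKO E2 3, any 1 of the ERKO oil libraries, WT E2 1 or 2 or WT oil 1 or 3. Arl5a, Ecm1, Ephb3, Map2k1, Map3k15, Olig2, Tmem90a and Unc5b were lost in 8 or 9 of the 12 fits, of ERKO oil, WT E2 and WT oil libraries and, for Ecm1, Ephb3, Map2k1, Olig2 and Tmem90a, ERKO E2 1. Their adjusted p reached at most 0.141.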
